A study of Mus musculus with 6 samples.

Results

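The enzymes described here carry out the upper steps of glycolysis, from the phosphorylation of glucose to the cleavage of fructose bisphosphate. Their messages were followed in mouse embryonic stem cells after an siRNA against pyruvate kinase M. They are the rows of the expression table whose gene symbol is Hk1, Hk2, Gpi1, Pfkl, Pfkm, Pfkp or Aldoa, and all 7 were found among 6532 genes. The study measured messenger RNA and ribosome-protected fragments (RPF, or footprints) in E14 cells, an established embryonic stem cell line, and the RNAs crosslinked to tagged PKM2. The siPKM cells were wild-type E14 cells given an siRNA against PKM1 and PKM2, and the siCtrl cells were wild-type E14 cells given a non-targeting pool, both at 20 nM for 36 h with a passage 16 h before ribosomes were collected. Both received cycloheximide at 100 µg/ml for 2 min, and each gave 1 RNA and 1 RPF library. The CLIP cells carried PKM2 with a FLAG-HA tag, were UV-crosslinked to a dose of 0.35 J per cm2, and gave 2 replicate libraries.

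Glycolysis opens with hexokinase, which traps glucose in the cell as glucose phosphate. An isomerase turns this into fructose phosphate, phosphofructokinase adds another phosphate in the pathway's main controlled step, and aldolase splits the product into a pair of triose phosphates. Pluripotent stem cells are known for a high flux through this route, and the product of phosphofructokinase is an allosteric activator of PKM2, the pyruvate kinase at the far end of the pathway. Hk1 and Hk2 are alternative hexokinases, and Pfkl, Pfkm and Pfkp encode the liver, muscle and platelet-type subunits that join into phosphofructokinase tetramers.

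The table held 10349212 coding sequence (CDS) reads for siPKM RNA, 12111993 for siCtrl RNA, 12545485 for siPKM RPF and 15175242 for siCtrl RPF, and 677701 and 670725 CLIP stops. Levels are given as CPM, the reads or stops of a gene per 1000000 CDS reads, or CLIP stops, of its library. The targeted gene, listed as Pkm2, stood at 1582 CPM in siPKM RNA and at 5024 CPM in siCtrl RNA, and at 1683 CPM in siPKM footprints and 5311 CPM in siCtrl footprints. Of 16 pluripotency markers 15 were in the table, with summed levels of 5714 CPM in siPKM RNA and 5726 CPM in siCtrl RNA, and 7078 CPM in siPKM RPF and 7499 CPM in siCtrl RPF. Pou5f1 and Sox2 were among the 15, and Nanog was not among the genes used. The sums hide single markers that went both ways, with RNA log2 ratios from -0.52 for Klf2 to 0.55 for Esrrb. By 95% counting interval 5 of 15 were above the median gene in RNA, against 27.4% of all genes, and 8 below, against 28.5%. In RPF 2 of 15 were above, against 26.3% of all genes, and 8 below, against 28.5%. Of 21 markers of trophoblast, endoderm, mesoderm, neural cells and fibroblasts 8 were in the table, summing to 530 CPM in siPKM RNA and 499 CPM in siCtrl RNA, and to 793 CPM in siPKM RPF and 703 CPM in siCtrl RPF. The fibroblast marker Vim made up the largest part of each sum. It had 304 CPM in siPKM RNA and 229 CPM in siCtrl RNA, and 536 CPM in siPKM RPF and 394 CPM in siCtrl RPF. Of the 8 markers 4 had an RNA log2 ratio above the median gene and 4 below it, so the sums do not stand for the list. Among the 8, Krt8 had the highest RNA log2 ratio, 0.59, and Tubb3 the lowest, -0.64. Markers of the same cell types were not uniform. Of the other trophoblast markers Krt18 stood at 0.37 and Tcfap2c at -0.60. Of the other neural markers Nes stood at -0.54 and Pax6 at -0.15 (-0.46 to 0.16). The part of these markers in the values below was not tested. In such bulk libraries fewer cells of a type and less RNA per cell cannot be told apart.

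The messages of the upper pathway differed little between the siPKM and siCtrl libraries. Hk2 was the member furthest above the median gene in siPKM RNA and Pfkl was the furthest below it. The ratios are log2 values of siPKM over siCtrl, scaled by library totals and centred on the median of all genes, with 95% intervals from the read counts. With 1 RNA and 1 RPF library for each siRNA, no difference between siPKM and siCtrl has a replicate check, no test was possible, and the intervals cover counting error only.

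**Figure D1:**
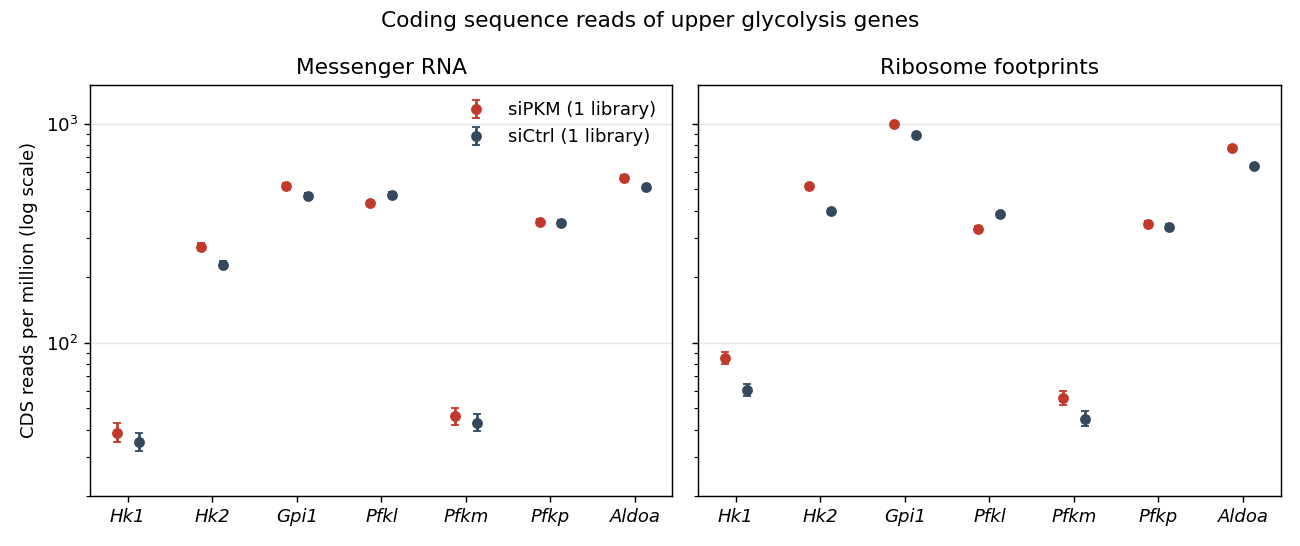
CDS reads (CPM) of each gene in messenger RNA and ribosome footprints, on a log axis, for the siPKM and siCtrl libraries (1 library each; bars are 95% counting intervals, often smaller than the point). The siPKM point lies above the siCtrl point in every panel position except Pfkl, which stood at 432 CPM in siPKM RNA and 473 CPM in siCtrl RNA.

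Hk1 (RefSeq NM_010438), a hexokinase found in most tissues, had 402 CDS reads (38.8 CPM) in siPKM RNA and 427 (35.3 CPM) in siCtrl RNA. It had 1067 CDS reads (85.1 CPM) in siPKM footprints and 925 (61.0 CPM) in siCtrl footprints. The siPKM library was thus higher in both kinds of library, and in footprints the counting intervals of 80.0 to 90.3 CPM in siPKM and 57.1 to 65.0 CPM in siCtrl lay apart. The RNA log2 ratio was 0.09 (-0.11 to 0.29), so no difference in message was detectable at this depth, and the footprint log2 ratio was 0.46 (0.33 to 0.59), above that of 94.7% of all genes.

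Hk2 (NM_013820) encodes the hexokinase that is prominent in muscle, embryonic and tumour cells and binds to mitochondria. It had 274 CPM in siPKM RNA and 226 CPM in siCtrl RNA, and 517 CPM in siPKM footprints and 397 CPM in siCtrl footprints. Both siPKM libraries were higher than their siCtrl counterparts. The log2 ratio was 0.23 (0.15 to 0.30) in RNA and 0.36 (0.31 to 0.41) in RPF, the second of these above 90.9% of all genes.

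Gpi1 (NM_008155), the isomerase that makes fructose phosphate from glucose phosphate, had 518 CPM in siPKM RNA and 469 CPM in siCtrl RNA. Its footprints stood at 993 CPM in siPKM and 883 CPM in siCtrl. Both ratios were above the median gene by a small margin, at 0.10 (0.04 to 0.15) in RNA and 0.15 (0.11 to 0.18) in RPF.

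Pfkl (NM_008826), the liver-type phosphofructokinase subunit, was the member that stood lower in both siPKM libraries. It had 4469 CDS reads (432 CPM) in siPKM RNA and 5723 (473 CPM) in siCtrl RNA. Its footprints came to 331 CPM in siPKM and 386 CPM in siCtrl, with counting intervals that lay apart in RNA and in RPF. The log2 ratios were -0.18 (-0.23 to -0.12) in RNA and -0.24 (-0.30 to -0.18) in RPF, and 15.3% of all genes had a lower footprint ratio.

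Pfkm (NM_001163487), the muscle-type subunit, had 46.0 CPM (476 reads) in siPKM RNA and 43.1 CPM (522 reads) in siCtrl RNA. Its footprints stood at 55.7 CPM in siPKM and 45.0 CPM in siCtrl. The RNA log2 ratio of 0.05 (-0.14 to 0.23) was within counting error of the median gene, while the RPF log2 ratio was 0.29 (0.13 to 0.44). Pfkp (NM_019703), the platelet-type subunit, had 355 CPM in siPKM RNA and 352 CPM in siCtrl RNA, and 347 CPM in siPKM footprints and 337 CPM in siCtrl footprints. Its log2 ratios were -0.03 (-0.10 to 0.03) and 0.02 (-0.04 to 0.08), both within counting error of the median gene. The 3 subunit genes of the same enzyme therefore lay below, above and near the median gene in footprints.

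Aldoa (NM_001177307), the aldolase of muscle and of most dividing cells, had 565 CPM in siPKM RNA and 512 CPM in siCtrl RNA. Its footprints stood at 771 CPM in siPKM and 642 CPM in siCtrl. The siPKM library was higher in both, with log2 ratios of 0.10 (0.04 to 0.15) in RNA and 0.24 (0.20 to 0.28) in RPF.

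No member was 1.5-fold apart or more in RNA in either direction (0 of 7 higher in siPKM, against 2.88% of all genes, and 0 of 7 lower, against 1.24%). The same held for footprints, with 0 of 7 higher, against 2.66% of all genes, and 0 of 7 lower, against 1.53%. With the counting interval alone as the criterion, Hk2, Gpi1 and Aldoa were above the median gene in RNA, 3 of 7 against 27.4% of all genes, and Pfkl was below it, 1 of 7 against 28.5%. In footprints 5 of 7 members were above, against 26.3% of all genes, and Pfkl alone was below, 1 of 7 against 28.5%. These intervals narrow with read depth, so deeply read genes pass the criterion at smaller ratios. The median gene had 704 CDS footprints in siPKM and 838 in siCtrl. Hk1 and Pfkm lay near this depth, while the other members had several times as many, up to 12456 in siPKM and 13398 in siCtrl for Gpi1. The median log2 ratio of the 7 members was 0.09 in RNA and 0.24 in RPF, where the median of all genes is 0 and the middle 90% of genes ran from -0.39 to 0.49 in RNA and from -0.39 to 0.47 in RPF.

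**Figure D2:**
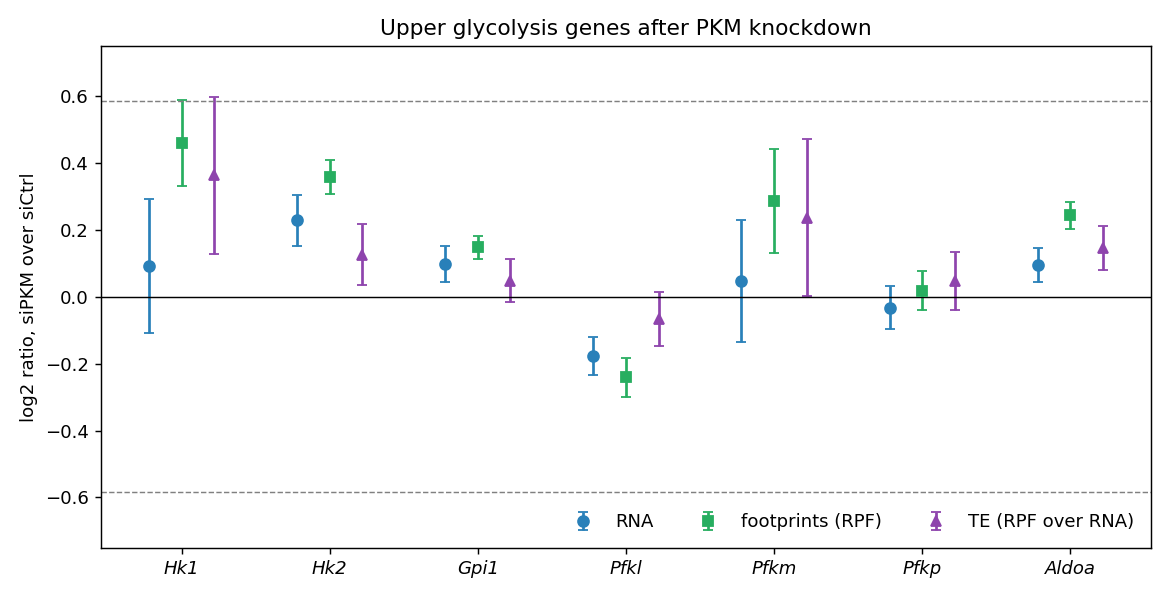
Log2 ratios of siPKM over siCtrl for RNA (circles), footprints (squares) and translation efficiency (triangles), relative to the median gene at 0, with 95% counting intervals; dashed lines mark a 1.5-fold difference. Footprint ratios reach 0.46 for Hk1 and 0.36 for Hk2, Pfkl lies at -0.24, and no point passes the dashed lines.

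Reads were summed by enzymatic step to show how the steps compared. The hexokinase step was the highest, with a log2 ratio of 0.21 (0.14 to 0.28) in RNA and 0.37 (0.32 to 0.42) in RPF. The phosphofructokinase step was the single one below the median gene, at -0.10 (-0.15 to -0.06) in RNA and -0.09 (-0.13 to -0.05) in RPF. Over all 7 genes, CDS reads made up 0.310% of siPKM footprints and 0.275% of siCtrl footprints, and 0.223% of siPKM RNA and 0.211% of siCtrl RNA.

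The share of reads that each isoenzyme took of its step was then compared between libraries. These shares depend on the genes' coding lengths, which were not used here, so neither the size of a share nor the size of its difference between libraries ranks the isoenzymes. Pfkl took 45.2% of phosphofructokinase footprints in siPKM (95% Clopper-Pearson interval 44.1 to 46.2) and 50.2% in siCtrl (49.3 to 51.1). Pfkp took 47.2% (46.2 to 48.3) in siPKM and 43.9% (43.0 to 44.8) in siCtrl, and Pfkm took 7.59% (7.06 to 8.15) in siPKM and 5.86% (5.44 to 6.30) in siCtrl. As shares of reads, Pfkl was thus lower in siPKM and both other subunits higher, with intervals that lay apart. Pfkl had the lowest footprint ratio of the 3 genes and Pfkm the highest, which fixes the direction of their shares at any coding length, whereas that of Pfkp, with a ratio between theirs, depends on the lengths. In RNA the Pfkl share was 51.8% (50.8 to 52.9) in siPKM and 54.5% (53.5 to 55.4) in siCtrl, and the Pfkm share of 5.52% (5.05 to 6.02) in siPKM overlapped that of 4.97% (4.56 to 5.40) in siCtrl. The hexokinase mix showed no detectable difference, since Hk2 took 85.9% (85.1 to 86.6) of its footprints in siPKM and 86.7% (85.9 to 87.5) in siCtrl.

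Translation efficiency (TE), the footprint level over the message level, is independent of a gene's length. Relative to the median gene, Hk1, Hk2 and Gpi1 carried many footprints per message in both conditions, Aldoa an intermediate number, and the 3 phosphofructokinase genes numbers near the median. The log2 TE level of Hk1 was 1.31 (1.14 to 1.47) in siPKM and 0.96 (0.80 to 1.13) in siCtrl. Hk2 stood at 1.09 (1.03 to 1.16) in siPKM and 0.99 (0.92 to 1.05) in siCtrl, and Gpi1 at 1.11 (1.07 to 1.16) in siPKM and 1.09 (1.04 to 1.13) in siCtrl. In siCtrl these 3 levels were higher than those of 89.3%, 89.8% and 91.5% of all genes. Their counting intervals overlapped, and the order among them was not tested.

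Aldoa followed with a TE level of 0.63 (0.58 to 0.67) in siPKM and 0.50 (0.46 to 0.55) in siCtrl. Pfkm stood at 0.45 (0.28 to 0.62) in siPKM and 0.24 (0.07 to 0.40) in siCtrl, and Pfkp at 0.14 (0.08 to 0.20) in siPKM and 0.11 (0.06 to 0.17) in siCtrl. Pfkl had the lowest TE level of the 7, -0.21 (-0.27 to -0.15) in siPKM and -0.12 (-0.17 to -0.06) in siCtrl, and 42.7% of all genes were lower than it in siCtrl. In siCtrl the intervals of Pfkm and Pfkp overlapped, while Aldoa lay above both and Pfkl below both.

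**Figure D3:**
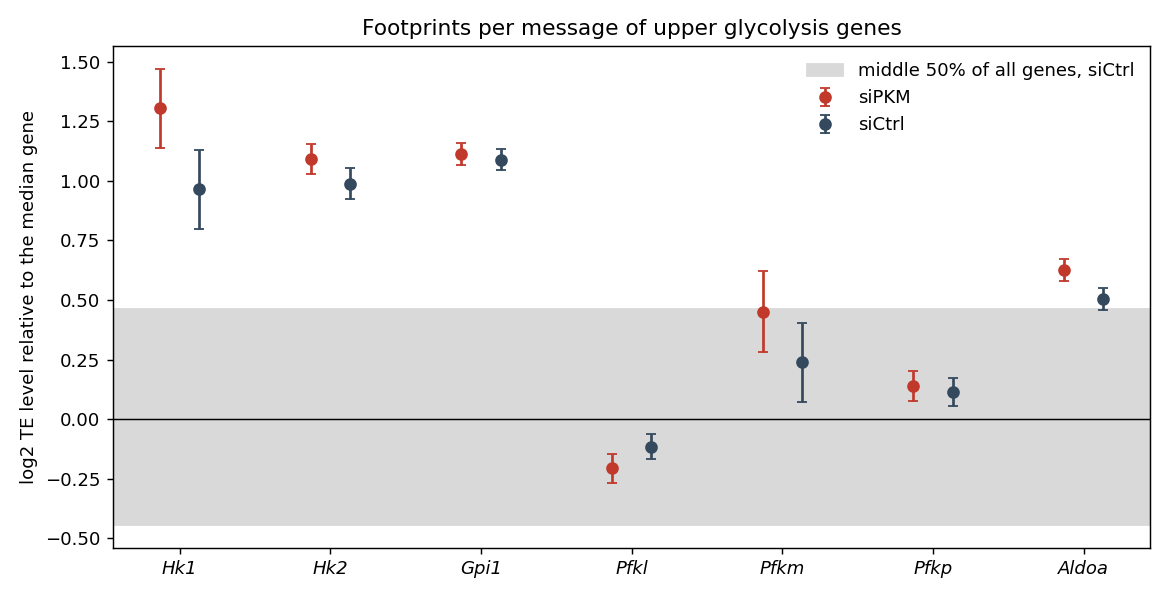
Log2 TE level of each gene in siPKM and siCtrl relative to the median gene at 0, with 95% counting intervals; the grey band holds the middle 50% of all genes in siCtrl. Hk1, Hk2, Gpi1 and Aldoa lie above the band, the phosphofructokinase genes inside it, and Hk1 has the widest gap between siPKM at 1.31 and siCtrl at 0.96.

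The difference in TE between siPKM and siCtrl was largest for Hk1, at a log2 ratio of 0.36 (0.13 to 0.60), which exceeded that of 97.3% of all genes. Pfkm followed with 0.24 (0.00 to 0.47), Aldoa with 0.14 (0.08 to 0.21) and Hk2 with 0.13 (0.04 to 0.22). The intervals of Gpi1 at 0.05 (-0.02 to 0.11), Pfkp at 0.05 (-0.04 to 0.13) and Pfkl at -0.07 (-0.15 to 0.01) included 0. By size of difference 0 of 7 members were 1.5-fold higher, against 0.184% of all genes, and 0 of 7 were 1.5-fold lower, against 0.827%. By the counting interval 4 of 7 were higher, against 14.1% of all genes, and 0 of 7 were lower, against 14.7%. This criterion too depends on read depth, which was higher for most members than for the median gene. The lower bound of Pfkm was so close to 0 that the count was 3 under several other settings. The 2 members with the fewest reads, Hk1 and Pfkm, had the largest TE ratios and the widest intervals. The median TE log2 ratio of the members was 0.13, and the middle 90% of all genes ran from -0.35 to 0.30. The log2 TE difference taken from the authors' deposited table, siPKM minus siCtrl and not centred, was 0.34 for Hk1, 0.22 for Pfkm, 0.12 for Aldoa and 0.11 for Hk2, and -0.09 for Pfkl.

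Reads were deposited separately for the untranslated regions (5′ UTR and 3′ UTR), the opening 15 codons, the last 5 codons and the CDS between them, which shows where on each message the reads lay. Each gene stands for a single annotated transcript, and RefSeq lists several curated transcripts for 5 of the 7 genes, the exceptions being Hk2 and Gpi1.

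Hk1 had no read in the 5′ UTR or the first 15 codons in any of the 4 libraries, a pattern shared by 43 genes (0.658% of all). Its transcript is the one that RefSeq names isoform HK1-sb, 1 of 2 curated Hk1 transcripts, and which of them the cells used was not tested. The transcript held 1072 reads in siPKM RPF and 928 in siCtrl RPF, and 496 in siPKM RNA and 516 in siCtrl RNA, so that 0 reads allow a share of up to 0.280% of footprints in siPKM and 0.323% in siCtrl, and of up to 0.605% of RNA reads in siPKM and 0.581% in siCtrl. Of the footprints counted on this transcript, 99.5% lay in the rest of the CDS in siPKM and 99.7% in siCtrl. Because RNA reads were also absent from its annotated 5′ end, these shares do not show where ribosomes sat on the Hk1 messages in use.

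Hk2 and Aldoa carried many footprints in the annotated 5′ UTR. Few Aldoa RNA reads lay in the annotated first 15 codons, 13 in siPKM and 8 in siCtrl. Its 5′ UTR footprints therefore cannot be said to lie upstream of the start codon in use. The 5′ UTR of Hk2 held 1120 of 7724 footprints in siPKM, or 14.5% (13.7 to 15.3), and 1063 of 7201 in siCtrl, or 14.8% (14.0 to 15.6). The 5′ UTR of Aldoa held 16.0% (15.4 to 16.7) of footprints in siPKM and 14.8% (14.1 to 15.4) in siCtrl. The median gene had 3.71% in siPKM and 3.85% in siCtrl, and 22.0% of all genes had at least 10% of their footprints in the 5′ UTR in both libraries. The Hk2 share was alike in both libraries within counting error. The Aldoa intervals of siPKM and siCtrl overlapped at their ends, which does not show that its shares were alike. The log2 ratio of Aldoa footprints was 0.384 (0.289 to 0.480) in the 5′ UTR and 0.243 (0.202 to 0.284) in the CDS, with intervals that lay apart.

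Messages also had many reads there. The 5′ UTR held 10.5% of Hk2 RNA reads in siPKM and 9.67% in siCtrl, and 19.3% of Aldoa RNA reads in siPKM and 19.1% in siCtrl, where the median gene had 2.57% in siPKM and 2.67% in siCtrl. The Aldoa RNA share exceeded that of 98.6% of all genes in siPKM and 98.3% in siCtrl. Counted as footprint reads per RNA read, the 5′ UTR of Hk2 stood at 1.67 in siPKM and 1.83 in siCtrl, against 2.29 in siPKM and 2.20 in siCtrl in its CDS. For Aldoa the 5′ UTR stood at 0.882 in siPKM and 0.776 in siCtrl, against 1.66 in siPKM and 1.57 in siCtrl in its CDS. Gpi1 was lower still, with 0.496 in siPKM and 0.641 in siCtrl in the 5′ UTR, against 2.32 in siPKM and 2.36 in siCtrl in its CDS. In all 3 genes the annotated 5′ UTR thus held fewer footprints per RNA read than the annotated CDS, with the smallest gap in Hk2.

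The ends of the CDS differed among members as well. In Aldoa the first 15 codons held 98 footprints (0.841%) in siPKM and 73 (0.633%) in siCtrl, and 13 RNA reads in siPKM and 8 in siCtrl, where the median gene had 4.24% of its footprints in siPKM and 4.32% in siCtrl. The transcript of this row is the one RefSeq names isoform 1, and how many of the cells' Aldoa messages begin with these codons was not tested. In Pfkl the last 5 codons held 3.84% (3.30 to 4.43) of footprints in siPKM and 3.43% (3.0 to 3.90) in siCtrl, higher than in 96.2% of all genes in siPKM and 95.1% in siCtrl. The same codons held 0.696% of its RNA reads in siPKM and 0.630% in siCtrl, so the footprint share was 5.51 times the RNA share in siPKM and 5.44 times in siCtrl. That ratio was 0.383 in siPKM and 0.571 in siCtrl for Pfkp, and 0.260 in siPKM and 0.266 in siCtrl for Gpi1. For Hk2 it was 3.11 in siPKM and 1.25 in siCtrl, from 9 RNA reads in siPKM and 14 in siCtrl.

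**Figure D4:**
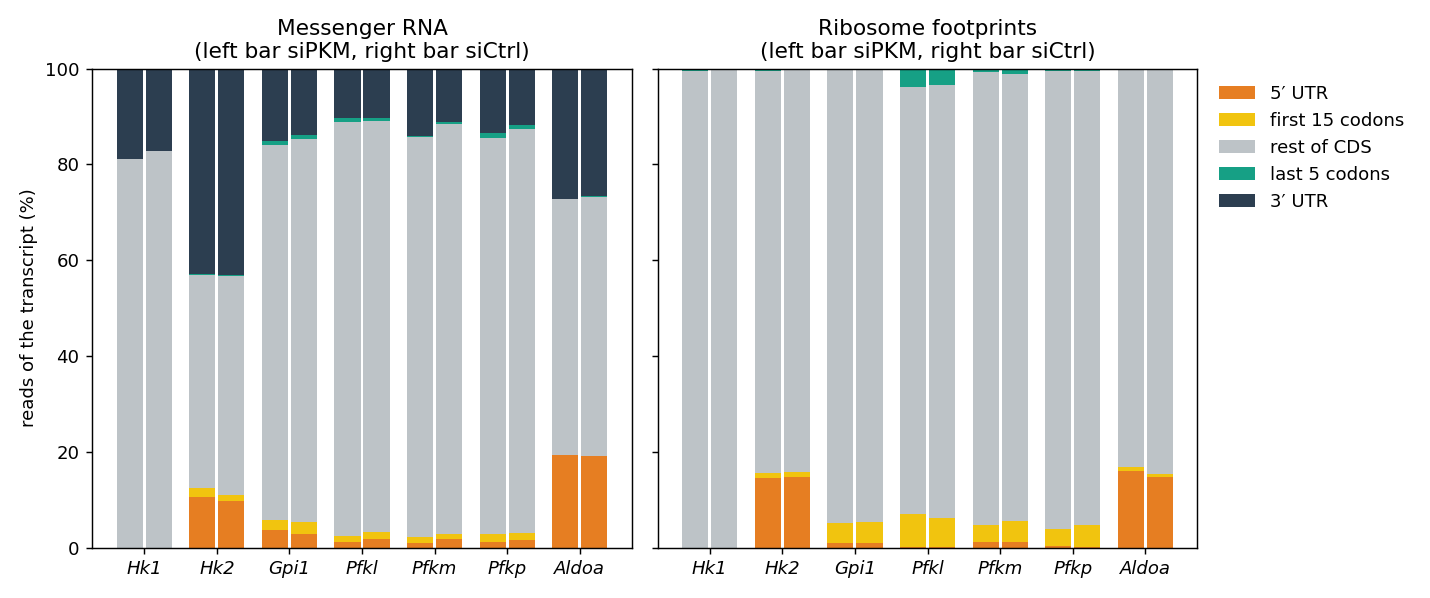
Share of each transcript's reads, in percent, by region of the message for RNA and footprints; of each pair of bars the left is siPKM and the right siCtrl. The annotated 5′ UTR takes 14.5% of Hk2 footprints in siPKM and 14.8% in siCtrl. For Aldoa it takes 16.0% of footprints in siPKM and 14.8% in siCtrl. The last 5 codons take 3.84% of Pfkl footprints in siPKM and 3.43% in siCtrl. Hk1 shows neither footprints nor RNA reads in the annotated 5′ UTR.

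The 5′ UTR of Pfkl differed between the RNA libraries by more than its CDS did. It held 58 of 5173 RNA reads in siPKM, or 1.12% (0.85 to 1.45), and 127 of 6670 in siCtrl, or 1.90% (1.59 to 2.26). The log2 ratio of these reads was -0.94 (-1.42 to -0.49), or -0.77 after that of the CDS was taken off. Among 2558 genes with at least 100 RNA reads in the 5′ UTR over both libraries, 27 (1.06%) had a value as low. Pfkp, with 49 reads in siPKM and 81 in siCtrl, had a value of -0.51, as low as in 6.37% of those genes, while that of Gpi1 was 0.34 and that of Hk2 0.16. In the 3′ UTR, the share of RNA reads was higher in siPKM for 6 of 7 members, the exception being Hk2 with 42.9% in siPKM and 43.0% in siCtrl, and for 50.6% of all genes. The siPKM and siCtrl intervals of this share overlapped for each member. For Pfkl the shares were 10.40% in siPKM and 10.34% in siCtrl. This count of directions thus includes differences within counting error, and it was not tested.

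Crosslinking to PKM2 was read from reverse transcription stops, which in iCLIP tend to fall next to a crosslinked base and which include background, since no control pull-down library was used here. Relative to their messages, most members gave fewer PKM2 stops than the median gene, with Gpi1 and Pfkl the lowest and Hk1 the single one above it. The labels do not say whether the replicates were separate cultures, and their SD may be a technical one.

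Hk1 had 32 and 24 stops, or 41.5 ± 8.09 CPM (SD, n = 2), and Hk2 had 203 and 202 stops, or 300.4 ± 1.15 CPM. Gpi1 had 88 and 100 stops, or 139 ± 13.6 CPM. Pfkl had 123 and 80 stops, or 150.4 ± 44.0 CPM, and its counting intervals in the replicates, 151 to 217 CPM and 94.6 to 148 CPM, did not overlap. Pfkm had 12 and 14 stops, or 19.3 ± 2.24 CPM, and Pfkp had 122 and 103 stops, or 167 ± 18.7 CPM. Aldoa had 351 and 354 stops, or 523 ± 6.97 CPM, more than 95.3% of all genes. A count of 0 would have allowed up to 4.43 CPM in replicate 1 and 4.47 CPM in replicate 2, and each member lay above this in both.

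To set stops against message abundance, the mean CLIP level was divided by the whole-transcript level in siCtrl RNA. On the log2 scale and relative to the median gene, Hk1 stood at 0.57, Hk2 at -0.14, Gpi1 at -1.49 and Pfkl at -1.29. Pfkm stood at -0.75, Pfkp at -0.73 and Aldoa at -0.27. 1 of 7 members was thus above the median gene, and the median of the members was -0.73. Gpi1 was higher than 11.8% of all genes and Pfkl higher than 15.3%. The values of both hexokinases depended on the region counted in RNA. With CDS reads alone as the denominator Hk1 stood at 0.08 and Hk2 turned to 0.24, so that both were above the median gene; for Hk2, 43.0% of siCtrl RNA reads lay in the 3′ UTR. Against siCtrl footprints in place of RNA, 0 of 7 members were above the median gene, and Gpi1 was the lowest at -3.03, higher than 3.63% of all genes.

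**Figure D5:**
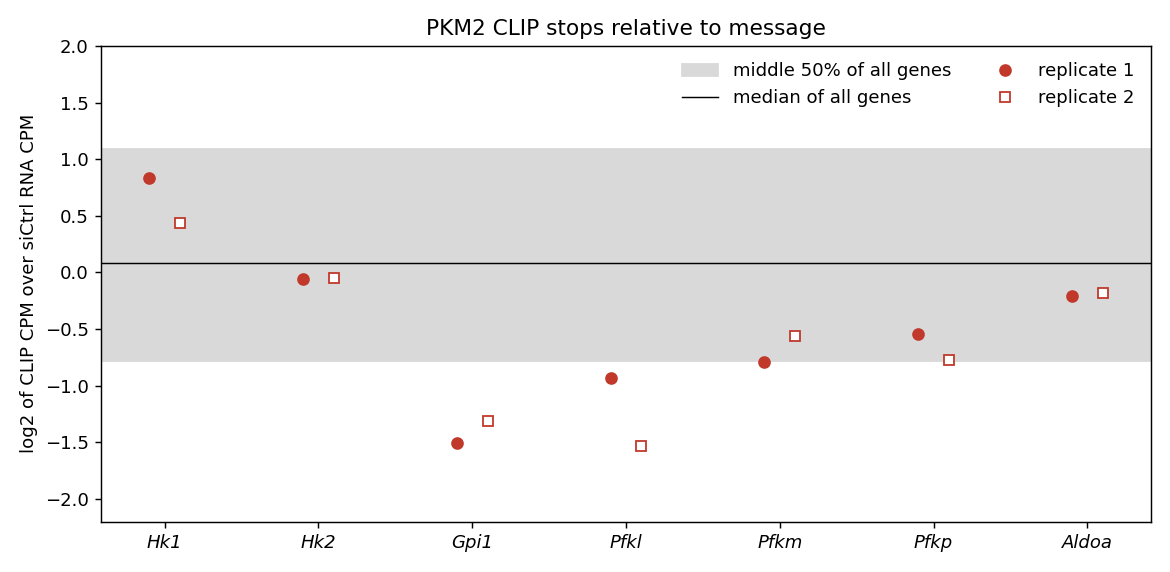
Log2 of the CLIP level (CPM of stops) over the siCtrl RNA level (CPM) of each gene in replicate 1 (filled circles) and replicate 2 (open squares); the line is the median of all genes and the grey band their middle 50%. Hk1 lies above the line in both replicates, Gpi1 and Pfkl lie below the band in both, and the replicates of Pfkl are the furthest apart.

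Other genes of sugar phosphate metabolism were compared by lists. Of 15 further upper-glycolysis isoenzymes and regulators 2 were in the table. Adpgk, an ADP-dependent glucokinase of the endoplasmic reticulum, had log2 ratios of 0.02 in RNA, -0.28 in RPF and -0.30 (-0.51 to -0.09) in TE. Tigar, a fructose bisphosphatase listed as 9630033F20Rik, had 0.12 in RNA, 0.05 in RPF and -0.08 (-0.26 to 0.10) in TE. The TE interval of Adpgk thus lay below the median gene, and that of Tigar included it.

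Enzymes that draw hexose phosphates into glycogen, hexosamine, mannose and pentose phosphate routes were represented by 18 of 31 genes, with a median log2 ratio of 0.03 in RNA, 0.04 in RPF and -0.01 in TE. In RNA 0 of 18 were 1.5-fold higher, against 2.88% of all genes, and 1 of 18 was lower, against 1.24%. The lower one was Pmm1, a phosphomannomutase, at -0.62 (-0.71 to -0.53). The highest RNA ratio was that of Pygb, a glycogen phosphorylase, at 0.42, and the TE ratios ran from -0.21 for Pgm2, a phosphoglucomutase, to 0.32 for Gnpnat1, an acetyltransferase of hexosamine synthesis. Downstream of aldolase, 7 of 13 genes of lower glycolysis and lactate metabolism had a median of -0.43 in RNA and -0.45 in RPF, between Pkm2 at -1.71 and the lactate dehydrogenase subunit Ldhb at 0.88 in RNA. Their TE ratios had a median of 0.12, with 4 of 7 intervals above 0 and 1 below, which is close to the values of the 7 upper genes (0.13, with 4 above and 0 below). Of all genes 14.1% had a TE interval above 0 and 14.7% below, a criterion that depends on read depth. The TE ratios of the lower genes ran from -0.12 for Pgam1, a phosphoglycerate mutase, to 0.19 for Pgk1, a phosphoglycerate kinase. The median of the genes below aldolase was thus below the median gene in the siPKM libraries and that of the 7 upper genes above it, a contrast that was not tested. The lower list includes Pkm2, the target of the siRNA, so its median holds the knockdown itself.

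Genes of the hypoxia response and regulators of glycolysis were also described. Of 24 genes of the hypoxia (HIF) response 12 were in the table, with a median of 0.18 in RNA, 0.15 in RPF and -0.02 in TE. In RNA 0 of 12 were 1.5-fold higher, against 2.88% of all genes, and 0 of 12 were lower, against 1.24%. The glucose transporter Slc2a3 was the highest in RNA at 0.41 and Bnip3, a mitophagy receptor, the lowest at -0.30, while TE ran from -0.23 for Arnt, the partner of HIF proteins, to 0.16 for Bnip3. Of 14 transcriptional and RNA-binding regulators of glycolysis 8 were in the table, with medians of -0.12 in RNA, -0.03 in RPF and 0.03 in TE. Mycn, a proto-oncogene of the Myc family, was the lowest in RNA at -0.68 and Esrrb, an orphan nuclear receptor of pluripotent cells, the highest at 0.55. TE ran from -0.29 for Foxk2, a forkhead factor, to 0.32 for Mlx, a partner of glucose-sensing Mondo factors.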

How the data were processed

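All 6 libraries stood in 1 table. Per the file headers, the authors deposited raw counts of RNA and RPF reads for 5 regions of a transcript and raw counts of CLIP stops per transcript. They also deposited log2 RPM, log2 TE and log2 CLIP enrichment, of which the last pair was used as an alternative. Per the submitters' processing notes, cutadapt, Bowtie2 and the mm9 build were used. Not given in the sources used here are their versions, the counting tool, the strand setting and how multi-mapping reads were handled, so single-gene values of these isoenzymes, which have close paralogs and, for some, pseudogenes, are uncertain, as are reads of antisense genes. Per the labels' protocols, footprints were made with RNase A and T1, and RNA was depleted of rRNA.

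The table had 6535 rows, each above 150 CDS reads in every RNA and RPF library, so a gene under that level in any of them is not analysed here. Of duplicated symbols the one with the most RNA reads on average was kept (3 rows dropped), and a floor of 64 mean reads removed 0 genes. 3 columns of values were not used. RefSeq identifiers of all 7 members and of 6468 genes matched a GRCm38.p6 gene table, used for names and transcripts only; no coordinates are given.

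CDS counts without the first 15 and last 5 codons, plus 0.5 reads, were scaled by library sums and centred on the median gene. TE ratios were RPF minus RNA log2 ratios, centred. Intervals are at 95%: exact binomial for ratios of counts, Clopper-Pearson for shares, exact Poisson for CLIP stops and a normal approximation on the log scale for TE. No molecular identifiers are stated for the counts, so PCR copies may not be independent and these intervals cover counting error only. Zero counts were read as up to 3 counts. CLIP over RNA used 0.5 added counts. The functions were tested on simulated data. The members and lists were chosen with earlier results of these data known. All members were named, as were all genes found of the list of further isoenzymes and regulators. From the other lists the genes with the highest and lowest RNA and TE ratio were named. The markers of other cell types and the regional values were picked out after the values were seen. So were the genes set beside each other by region. Isoenzyme shares per coding length, as designed, were not computed. Python 3.11.15, numpy 2.4.6, pandas 2.3.3, scipy 1.17.1, R 4.3.3, edgeR 4.0.16 and DESeq2 1.42.0 (the last pair for scaling factors in alternatives only) were used.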

Additional observations from a re-analysis of the deposited data

How the results depend on the processing

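No paired analysis was possible because there was 1 RNA and 1 RPF library for each siRNA and the CLIP replicates have no partner in another group. All 175 single-gene log2 ratios recomputed under other scalings, regions, added reads and floors stayed inside their counting intervals. Part of this outcome was fixed in advance. Without a floor the values repeat the main ones, since the floor removed 0 genes. The other scalings and the higher floor shift all genes of a ratio by the same small amount. The tally therefore says little about these settings. The sign of Pfkp in RNA, whose interval includes 0, turned to 0.01 with library sums and no centring. The members' median ran from 0.09 to 0.14 in RNA, from 0.24 to 0.28 in RPF and from 0.09 to 0.13 in TE. Scaling by library sums without centring shifts the median gene by 0.05 in RNA, 0.02 in RPF and -0.02 in TE. Under it the TE interval of 1 member, Pfkl, lay below 0, against 0 with centring and with edgeR or DESeq2 factors. Because of Pfkm, 3 and not 4 TE intervals lay above 0 with library sums without centring, with the first 15 and last 5 codons, with all reads of the transcript and with a floor 4 times higher. The median TE level of the members was 0.63 in siPKM, against 0.50 in siCtrl. The median CLIP level over RNA, -0.73 relative to the median gene, ranged from -0.65 to -0.64 with either replicate left out, and was -1.25 with CDS RNA reads and -0.75 with siPKM RNA as the denominator; Hk2 reversed to 0.24 and Hk1 moved to 0.08 with CDS RNA reads. Using the first 15 and last 5 codons too, a setting chosen after seeing the data, moved the Pfkl share of siPKM footprints to 46.9% and the Pfkp share to 45.7%. Hk1 and Pfkm, which had the fewest RNA reads of the members, have the widest intervals.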

Other observations

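The genes most like each member were sought over 4 values, the RNA and RPF log2 ratios, the siCtrl TE level and CLIP over RNA, each divided by its SD over 6532 genes. The nearest gene was Mettl14, a subunit of the RNA adenosine methyltransferase, for Hk1 (0.497 SD away), Mat2a, which makes S-adenosylmethionine, for Hk2 (0.309) and Hadh, a fatty acid oxidation enzyme, for Gpi1 (0.349). It was Ttc27 for Pfkl (0.160), Smc1a, a cohesin subunit, for Pfkm (0.157), Wdr1, an actin regulator, for Pfkp (0.132) and Cbr3, a carbonyl reductase, for Aldoa (0.153). No member was nearest to another member. Among the members, Pfkm and Aldoa were the closest pair, at 0.505 SD, followed by Hk1 and Hk2 at 0.763 SD, and Hk1 and Pfkl were the furthest apart, at 3.26 SD.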
